A study of Oryza sativa Japonica Group with 238 samples.

Results

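The upstream regions of 780 protein kinase genes were followed in rice (Oryza sativa cv. Nipponbare) roots, out of 35678 upstream regions that the deposited accessibility data hold. A region was taken when the description paired with its gene identifier in the deposited expression data held the words protein kinase, receptor kinase or receptor-like kinase. Such a description exists for 28248 of the 35678 regions. All 780 regions had reads in at least 1 library, and all 780 passed the filter on low counts in each test. The regions are named after the start codon (ATG2000), but no source used here gives the exact span of the window. Genes were named only by the descriptions in the files, in which "similar to" marks a resemblance to a protein. The 780 members carried 234 distinct descriptions.

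Protein kinases transfer phosphate to other proteins and thereby switch them on or off. Plants have a very large family of them, in which receptor-like kinases sit in the plasma membrane and read cell wall, hormone or microbial signals. Calcium-dependent kinases (CDPK), and kinases that bind the calcineurin B-like calcium sensors (CIPK), turn calcium signals into phosphorylation. SnRK kinases respond to energy shortage (SnRK1) and to osmotic stress and abscisic acid (SnRK2). Mitogen-activated protein kinases (MAPK) pass such signals on in cascades. Open chromatin upstream of a gene can be cut by the Tn5 transposase used in ATAC-seq, so that accessible regions gather more reads.

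Nuclei came from 3 transgenic lines that carry a nuclear tagging fusion under a different promoter: p35S:NTF2, with a promoter of viral origin that drives expression broadly, pCMZ:NTF, and pQHB:NTF, with the promoter of QHB, a homeobox gene of quiescent centre cells in the root tip. Tagged nuclei were captured on streptavidin beads (INTACT) and then treated with Tn5. There were 51 such libraries in 17 groups of 3. The 35S line was sampled in control I, control II, water deficit, waterlogging, submergence, the recovery after each of these 3 stresses, and the field. The CMZ line was sampled in control I, deficit, waterlogging, the recovery after each, and the field. The QHB line was sampled in control I and deficit only. Control pots were watered daily and deficit pots were left without water. Waterlogged pots were flooded to just above the base of the shoot. Submerged pots stood wholly under water in tanks covered with shade cloth, so that submerged plants also differ in light. Waterlogging and submergence lasted 5 days, greenhouse roots were taken at 26 days, and recovery roots at 27 days, after 1 day. Field plants were moved to a paddy at 14 days and taken at 49 days, so they differ from every greenhouse group in age as well as in place. A greenhouse replicate pooled the roots of the 21 plants of a pot. What a field replicate pooled is not stated. Submergence was compared with control II and the other environments with control I. That pairing of control II with submergence is an inference, since no label states it. Translated RNA (TRAP) of the same genes was measured by the authors in a line with a FLAG-tagged ribosomal protein under the 35S promoter (p35S:HF-GFP-OsRPL18), from other plants, in 30 libraries. These are bulk samples, in which fewer cells of a type and a smaller signal per cell cannot be told apart.

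The deposited counts per library ranged from 812498 to 17113727, with a median of 3099295, and the median protein kinase region held between 23 and 447 counts in a library. The QHB region (OS01G0854500), which checks the label of the QHB line, stood at 192 ± 92.3 normalised CPM (counts scaled to library size; SD, n = 3) in that line in control I. It stood at 25.6 ± 6.47 CPM in the 35S line and at 24.5 ± 12 CPM in the CMZ line. Libraries also differed in how far reads were concentrated. The tenth of regions with the highest mean level took between 12.6% and 36.4% of a library's counts. This share was lowest in deficit of the QHB line (12.6% to 18.2%) and of the CMZ line (13.2% to 13.5%), and highest in the field in the 35S line (35.6% to 36.4%). It was 23.2% to 28.5% in 35S control I, 32.3% to 32.9% in control II and 33.1% to 34.9% in submergence. A lower share means a flatter profile, in which high regions look lower and low regions look higher.

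The protein kinase regions took between 2.22% and 2.90% of all counts in a library, with a median of 2.46%. In control I of the 35S line they took 2.43% ± 0.0178 (SD, n = 3), in control II 2.61% ± 0.0829, in submergence 2.65% ± 0.0898 and in the field 2.80% ± 0.0867. All 3 field libraries lay above all 3 control I libraries, at an exact two-sided permutation p of 0.1, which is the smallest p that 3 against 3 libraries allow. Control II and waterlogging (2.53% ± 0.0298) also lay wholly above control I in exact permutation tests (p = 0.1 each). Submergence did not separate from control II (exact permutation p = 0.7), nor did deficit, at 2.34% ± 0.103, from control I (exact permutation p = 0.4). In the CMZ line the share was 2.36% ± 0.0401 in control I and 2.25% ± 0.0131 in deficit, with no overlap (exact permutation p = 0.1), and 2.45% ± 0.0765 in the field (exact permutation p = 0.3). The part of the concentration of reads in these differences was not tested.

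**Figure D1:**
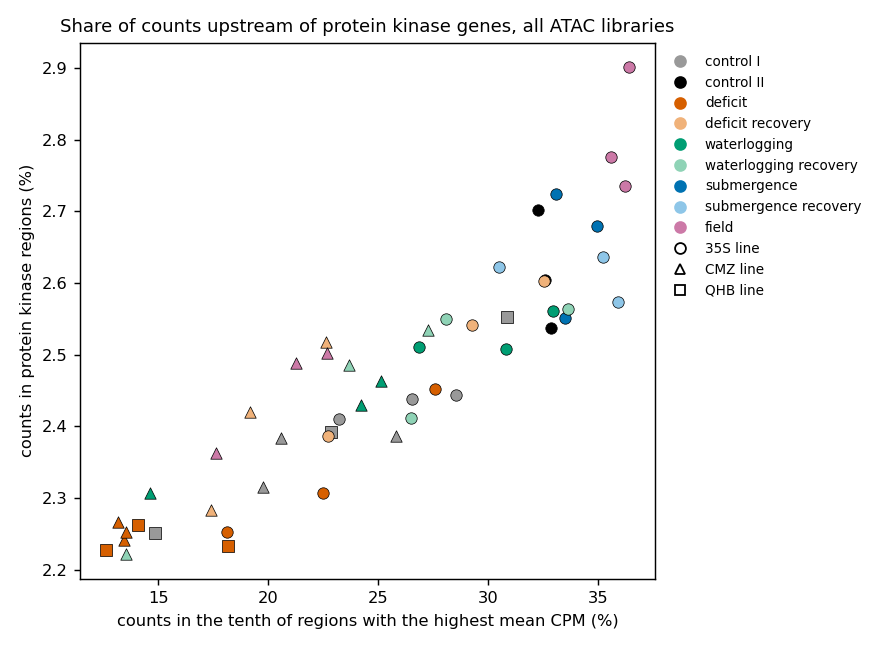
Share of each library's counts in protein kinase upstream regions (percent, y axis) against the share of its counts in the tenth of regions with the highest mean level (percent, x axis). Each point is 1 of the 51 ATAC libraries, with colour for the environment and shape for the line; the 35S field libraries stand at the upper right and the CMZ and QHB deficit libraries at the lower left.

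In 35S control I the median protein kinase region stood at 25.0 CPM, with 15.5 CPM at the 10th percentile and 51.9 CPM at the 90th. The median over all regions was 21.9 CPM, and 23.2 CPM over the other genes with a description. The span between the 10th and 90th percentiles was 9.18 to 92.6 CPM in the 35S field and 19.0 to 30.5 CPM in CMZ deficit, beside medians of 31.4 and 24.4 CPM. The highest region was that of OS12G0586100, described as a kinase activated by abscisic acid in the hyperosmotic stress response, at 243 ± 48.5 CPM. Its group means ran from 45.1 CPM in CMZ deficit to 364 CPM in 35S submergence recovery. It was followed by OS11G0672300 at 152 ± 14.9 CPM, a somatic embryogenesis receptor kinase-like gene (SERK-like, OS05G0218400) at 142 ± 28.4 CPM and an SNF1 gamma subunit gene (OS04G0382300), a partner of the SnRK1 kinase, at 139 ± 39.4 CPM. These 3 differ by less than the spread between their libraries. Next came OS06G0288100 at 128 CPM, OS03G0756200 at 117 CPM, the MAPK gene OS06G0708000 at 113 CPM, a shaggy-related gene (eta, OS06G0547900; shaggy kinases are known from brassinosteroid signalling) at 101 CPM, OS11G0666200 at 98.7 CPM and the CDPK gene OS07G0409900 at 98.2 CPM. The lowest was a BAK1-like region (OS10G0428200; BAK1 is a co-receptor of brassinosteroid signalling in Arabidopsis) at 3.86 ± 0.354 CPM. Another BAK1-like region, OS05G0371600, stood at 8.91 CPM.

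By role, 106 members were described as receptor kinases, 34 as CDPK, 28 as members of MAPK cascades, 19 as CIPK, 16 by brassinosteroid signalling (BAK1 or SERK), 15 by a lectin or S-domain, 9 by leucine-rich repeats, 9 as SnRK, 6 as shaggy-related and 5 as wall-associated (WAK), and 433 carried a kinase domain name only. In 35S control I the median level of a group ran from 19.4 CPM for wall-associated kinases to 40.3 CPM for shaggy-related kinases. It was 25.8 CPM for receptor kinases, 28.5 CPM for CDPK, 30.3 CPM for CIPK, 25.9 CPM for MAPK cascades and 24.5 CPM for SnRK. Within each of the larger groups the levels spread much wider than this, for receptor kinases from 3.86 to 142 CPM. Counts are not divided by a length, and these levels describe windows of one nominal kind.

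Some windows are not independent. For 38 members the counts lay within 5% of those of a gene within 3 places in the identifier order, which is what a shared or overlapping window gives, and 3 such pairs were 2 protein kinase genes each. Which gene a shared region serves cannot be told from these counts. Rice also has a recent duplication between the ends of a pair of chromosomes, which may touch OS11G0113700, OS11G0121500, OS11G0133001, OS12G0105800 and OS12G0113500. No source used here says how reads of such near-identical copies were divided, and the values of these regions are uncertain to that extent.

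Submergence changed the upstream regions of 87 of the 780 protein kinase genes in the 35S line, 39 higher and 48 lower than control II (edgeR's quasi-likelihood test, Benjamini-Hochberg adjusted p under 0.05, no fold limit). That is 11.2% of the members, beside 6.7% of all regions tested and 7.53% of the regions of genes with a description. The rises were 5.00% of members against 2.94% of all regions, and the falls 6.15% against 3.76%. At an unadjusted p under 0.05 there were 205 members (26.3%, beside 17.5% of all regions), and DESeq2 called 94 (12.1%, beside 7.68%). Of the 87 called regions 23 changed at least 2-fold, and 5 share a window with a neighbour. The median over all 780 members was 0.03 on the log2 scale, beside 0.01 for all regions. The count rested on single libraries, with 38 to 86 members called when each library was left out in turn. It was 38 without submergence replicate 1, 47 without submergence replicate 2, 47 without control II replicate 2 and 49 without control II replicate 3. With control I in place of control II, 235 members were called, 176 of them higher. That is 30.1% of members, beside 22.5% of all regions. Of 25 named results of submergence, 14 kept their call against control I and 11 lost it.

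When all regions were divided into 4 equal bins by their mean level, 19.7% of members were called in the second highest bin, beside 11.8% of all regions in it. In the highest bin the shares were 11.2% and 9.08%, in the second lowest 5.33% and 4.66%, and in the lowest 2.59% and 1.02%. Members held more high regions than the whole set, with 267 in the highest bin and 116 in the lowest.

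**Figure D2:**
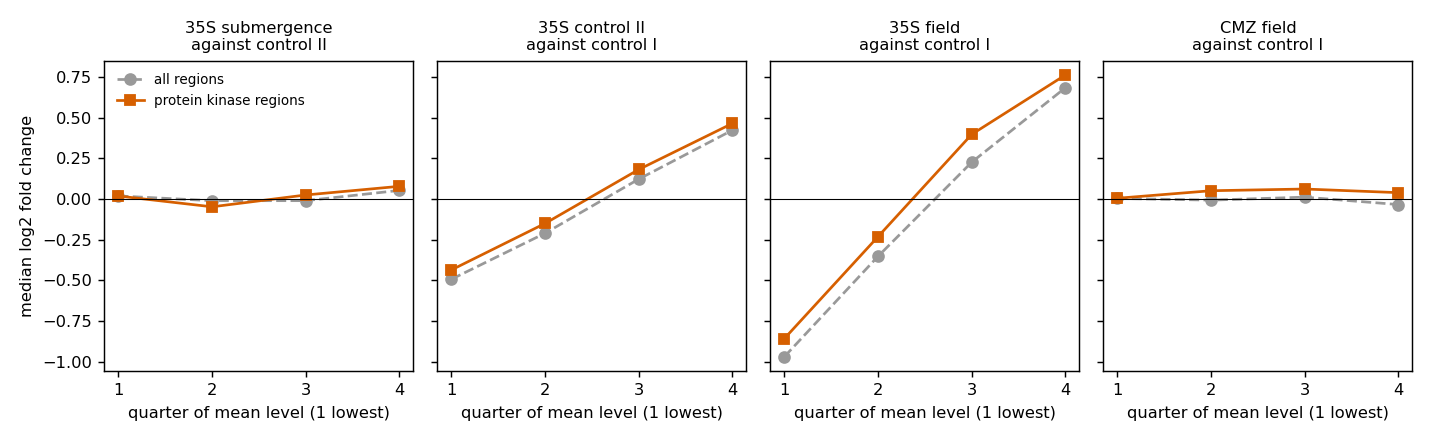
Median log2 difference (y axis) in 4 bins of regions by mean level (x axis, lowest to highest), for protein kinase regions and for all regions, in 4 comparisons. In the 35S field the medians of both climb from below 0 in the lowest bin to above 0 in the highest, control II against control I shows the same slope at a smaller size, and 35S submergence and the CMZ field stay near 0.

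The strongest rise in submergence was that of OS02G0120100, annotated as ATMRK, a name given in Arabidopsis to kinases of the mixed-lineage and Raf-related kind. Its region held 34.9, 28.4 and 28.4 CPM in the 3 control II libraries, 134, 147 and 82.6 CPM in the 3 submergence libraries, and 33.2, 54.5 and 59.0 CPM after 1 day of recovery. Every submergence library stood above every control and recovery library, and the recovery libraries spread from control levels upward. The log2 difference was 1.96 (SE 0.22, adjusted p = 2.49e-09), and recovery lay 1.30 below submergence on the log2 scale (adjusted p = 0.000157). Its translated RNA was near absent in control II, at 0.456 ± 0.0547 TPM, and stood at 90.9 ± 10.6 TPM in submergence and 4.25 ± 1.35 TPM in recovery (SD, n = 3 each). The RNA difference was 5.97 on the log2(TPM + 1) scale (limma, adjusted p = 1.06e-09).

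Another ATMRK gene, OS09G0544300, started from a more open region. It held 30.6, 44.3 and 51.1 CPM in control II, 111, 157 and 89.7 CPM in submergence and 34.2, 53.6 and 47.6 CPM in recovery. Submergence libraries again lay wholly above both other groups, which overlapped each other (log2 1.47, SE 0.25, adjusted p = 3.02e-05; recovery -1.39, adjusted p = 0.000443). Its RNA stood at 14.4 ± 1.22 TPM, 75.4 ± 6.26 TPM and 18.4 ± 2.95 TPM in the same order of groups, a rise of 2.31 on the log2(TPM + 1) scale. OS02G0120100 and OS09G0544300 thus rose in both measures, from very unequal RNA levels in control II. They were named for their large rises and do not stand for all ATMRK genes. A further member described as ATMRK, OS02G0174200, was not among the named regions, and its values are not given here.

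OS11G0133001, similar to a Ser/Thr kinase, had one of the lowest control levels among the called rises. It held 14.2, 8.96 and 11.9 CPM in control II, 52.7, 44.7 and 34.2 CPM in submergence and 18.4, 15.2 and 19.2 CPM in recovery. Submergence stood apart from the other groups, and all 3 recovery libraries lay above all 3 control libraries by a small step (log2 1.88, SE 0.25, adjusted p = 2.49e-07; recovery -1.30, adjusted p = 0.00131). Its RNA rose from 0.366 to 9.96 TPM and stood at 1.39 TPM in recovery (log2(TPM + 1) 3.01). OS07G0141100, with a kinase domain name only, held 51.8, 30.0 and 36.2 CPM, then 106, 137 and 70.8 CPM, then 47.1, 27.3 and 55.4 CPM in control II, submergence and recovery. Its control and recovery libraries overlapped and its submergence libraries lay above both (log2 1.38, adjusted p = 2.29e-05), while its RNA rose from 1.21 to 23.9 TPM. OS07G0686800 behaved alike, with 42.8, 34.9 and 35.1 CPM in control II, 107, 101 and 58.5 CPM in submergence and 38.4, 31.1 and 38.7 CPM in recovery (log2 1.21, adjusted p = 0.000413), and RNA of 7.56, 69.9 and 13.8 TPM. OS04G0655300 rose by 1.35 and OS03G0339900 by 1.28 on the log2 scale. The submergence calls of OS02G0120100, OS09G0544300, OS11G0133001, OS07G0141100 and OS04G0655300 held without each of the 6 libraries in turn.

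**Figure D3:**
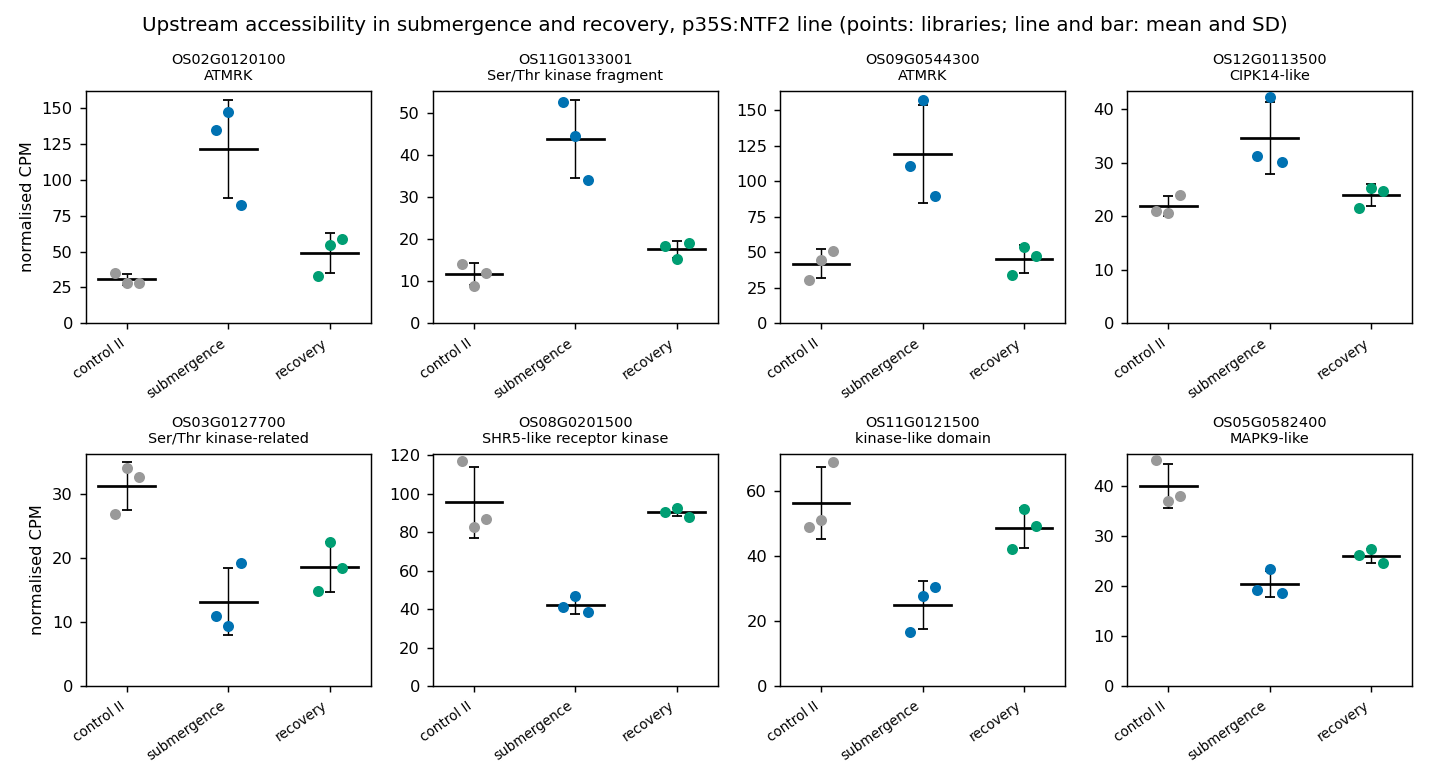
Normalised CPM (y axis) of 8 protein kinase regions in control II, submergence and submergence recovery of the 35S line; points are the 3 libraries of a group and the line with bar is the mean with SD. The upper 4 regions (OS02G0120100, OS11G0133001, OS09G0544300, OS12G0113500) rose in submergence and the lower 4 (OS03G0127700, OS08G0201500, OS11G0121500, OS05G0582400) fell.

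Single genes with a named role in calcium or energy signalling were also among the called regions. In the CIPK-like gene OS12G0113500 (similar to CIPK14) the region held 20.9, 20.7 and 24.1 CPM in control II, 31.2, 42.3 and 30.2 CPM in submergence and 21.6, 25.4 and 24.8 CPM in recovery. The submergence libraries lay above all others by a modest step (log2 0.63, SE 0.20, adjusted p = 0.0366), and the adjusted p ranged from 0.0287 to 0.326 when each library was left out. Against control I the difference was 0.47 and was not called (adjusted p = 0.0787). The RNA difference was far larger, from 2.30 ± 1.04 to 38.5 ± 8.17 TPM (log2(TPM + 1) 3.60), with 17.4 ± 1.83 TPM in recovery. OS11G0113700, described as a kinase of abiotic stress and of defence signalling induced by microbial patterns, was picked after its values were seen. Its region held 21.1, 23.2 and 24.2 CPM, then 38.9, 45.5 and 37.9 CPM, then 24.2, 32.3 and 18.1 CPM, so that submergence again stood apart (log2 0.81, adjusted p = 0.00552). Its RNA went from 1.73 ± 0.634 to 52.4 ± 11.9 TPM and stood at 20.9 ± 1.40 TPM in recovery. Both genes therefore kept RNA well above control after 1 day, while the regions overlapped control levels (recovery minus control II was 0.11 in OS12G0113500). Both are among the genes that the recent duplication may touch. How reads of near-identical copies were divided is not known, so the pair may not be separate observations.

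OS09G0499000 encodes a protein described as a negative regulator that interacts with SnRK1A, a starvation-sensing kinase. Its region held 28.8, 36.9 and 30.4 CPM in control II, 43.0, 54.7 and 57.1 CPM in submergence and 27.7, 31.7 and 31.2 CPM in recovery. Submergence did not overlap the other groups (log2 0.65, adjusted p = 0.036; recovery -0.76, adjusted p = 0.0406), although the call was lost in 4 of 6 leave-one-out fits, with an adjusted p of 0.0334 to 0.161. Its RNA rose from 41.7 ± 9.53 to 138 ± 10.8 TPM and stood at 54.7 ± 3.65 TPM in recovery. In the gene similar to 3-phosphoinositide-dependent kinase (PDK1, OS01G0872800), which activates kinases of the AGC group, the region held 14.0, 16.7 and 13.6 CPM, then 29.0, 21.5 and 24.7 CPM, then 14.2, 12.7 and 12.2 CPM. Here the region rose and fell (log2 0.73, adjusted p = 0.035; recovery -0.93, adjusted p = 0.0225; 5 of 6 leave-one-out fits lost the first call, with an adjusted p of up to 0.228), but the RNA, at 21.2 ± 1.25 and 27.4 ± 3.43 TPM, was not called. Against control I the region of OS01G0872800 differed by 0.50 and was not called (adjusted p = 0.106).

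Counts by role in submergence stand beside 2.94% of all regions higher and 3.76% lower, and were not tested. Of the 106 receptor kinases 6 regions were higher and 3 lower, of the 20 members described as tyrosine kinases 2 were called, both higher, and of the 433 with a domain name only 23 were higher and 29 lower. Receptor kinase rises were small. They included OS07G0542600 (similar to RK20-1; region log2 0.73, RNA 2.30) and OS07G0538400 (region 0.61, RNA 2.22). Others had little RNA change, such as a lectin receptor kinase-like gene (OS12G0574700; region 0.74, RNA -0.04) and a stress-induced receptor-like gene (OS01G0136900; region 0.63, RNA 0.15), whose window is shared with the kinase gene OS01G0136800. A SERK-like region (OS08G0174800) rose by 0.67 against control II; in control I it stood at 31.8 ± 3.38 CPM, from which submergence differed by 0.17 (adjusted p = 0.535, not called). The calls of OS12G0574700 and OS08G0174800 were each lost in 4 of 6 leave-one-out fits, with an adjusted p of up to 0.324 and 0.148.

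The largest fall was that of OS03G0127700, with a kinase-related domain name. Its region held 26.9, 34.0 and 32.6 CPM in control II, 10.9, 9.43 and 19.2 CPM in submergence and 14.8, 22.5 and 18.4 CPM in recovery. Both later groups lay wholly below control II, and recovery overlapped submergence (log2 -1.29, SE 0.23, adjusted p = 5.35e-05). In control I it stood at 18.5 ± 1.72 CPM, from which submergence differed by -0.52 (adjusted p = 0.102, not called). Its RNA was low throughout, at 1.71, 0.285 and 2.65 TPM. The SHR5-like receptor kinase gene OS08G0201500 came from a much more open region, with 117, 82.8 and 86.5 CPM in control II, 41.0, 46.8 and 38.2 CPM in submergence and 90.6, 92.3 and 88.0 CPM in recovery. Recovery had returned to within the control range, and submergence stood below both (log2 -1.21, SE 0.25, adjusted p = 0.000659; recovery 1.11, adjusted p = 0.00735), while its RNA stood at 5.05, 1.85 and 3.86 TPM. Against control I the difference of OS08G0201500 was -0.63 and was not called (adjusted p = 0.0607). OS11G0121500 held 49.0, 51.3 and 69.0 CPM, then 16.7, 27.8 and 30.5 CPM, then 42.2, 54.5 and 49.3 CPM, again with submergence below all other libraries (log2 -1.21, adjusted p = 0.000337; recovery 0.98, adjusted p = 0.0163).

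Of the 28 MAPK cascade regions 2 were called, both lower, beside 6.7% of all regions called. The MAPK9-like region OS05G0582400 held 45.0, 36.9 and 37.9 CPM in control II, 19.2, 23.3 and 18.6 CPM in submergence and 26.1, 27.3 and 24.5 CPM in recovery. The 3 groups formed 3 separate levels, with recovery still below every control library (submergence log2 -1.0, SE 0.22, adjusted p = 0.00116). Recovery differed from submergence by 0.36 (SE 0.23, edgeR adjusted p = 0.628) and was not called, nor was it called against control II. RNA of OS05G0582400 stood at 9.33 ± 2.00, 2.45 ± 0.536 and 5.04 ± 1.48 TPM in the same order. The region of OS05G0143550, similar to a blast- and wound-induced MAPK, held 42.6, 38.9 and 40.7 CPM, then 19.3, 22.4 and 21.7 CPM, then 31.0, 22.8 and 15.0 CPM. Submergence lay wholly below control II and recovery spread on both sides of it (log2 -0.98, adjusted p = 0.000686), while the RNA, 12.7 ± 1.88 and 9.10 ± 0.712 TPM, was not called. Regions of the CIPK22-like gene OS05G0333100 (-0.84), the CIPK11-like gene OS06G0543400 (-0.84) and the CIPK2-like gene OS05G0332300 (-0.85) fell. Called regions of genes described as CIPK thus went both ways, 1 higher and 3 lower of the 19 so described. A CIPK gene whose description uses other words is not in this count. The calls of OS05G0333100 and OS06G0543400 were lost in 4 and 5 of 6 leave-one-out fits. Against control I, OS05G0582400 differed by -0.49 (adjusted p = 0.102), OS05G0143550 by -0.47 (adjusted p = 0.0955) and OS06G0543400 by -0.20 (adjusted p = 0.566), and none of the 3 was called.

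Some falls in membrane kinases came with large losses of RNA. In a leucine-rich repeat transmembrane kinase-like gene (OS03G0183800) the region held 52.7, 40.3 and 37.3 CPM in control II, 18.1, 25.9 and 19.3 CPM in submergence and 31.3, 24.4 and 25.6 CPM in recovery. The submergence libraries lay below every control library and recovery overlapped submergence only (log2 -1.07, adjusted p = 0.000613). In control I the region stood at 23.7 ± 4.96 CPM, from which submergence differed by -0.15 (adjusted p = 0.638, not called). Its RNA went from 72.3 ± 15.9 to 11.4 ± 5.17 TPM and back to 55.5 ± 10.1 TPM. The transmembrane kinase-like gene OS07G0166700 held 37.7, 34.9 and 35.6 CPM, then 12, 23.6 and 17.5 CPM, then 18.1, 21.6 and 28.4 CPM, with RNA of 26.7 ± 1.76, 2.35 ± 0.933 and 13.5 ± 5.58 TPM. In both genes the RNA returned further toward control within 1 day than the region did.

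Region and RNA were measured in different plants, so their directions can be set beside each other. Of the 780 genes, 722 were expressed enough to be tested in TRAP RNA, and 181 of these were called in submergence at an adjusted p under 0.05 and at least 2-fold, 98 higher and 83 lower. That is 25.1%, beside 20.1% of all genes tested, of which 9.98% were higher and 10.1% lower. Of the 37 tested genes with a higher region, 23 rose in RNA (62.2%) and 0 fell, with a median of 1.32 on the log2(TPM + 1) scale, and 35 had a positive value. Of the 47 with a lower region, 26 fell (55.3%) and 1 rose, with a median of -1.12. Of the 638 whose region was not called, 74 rose (11.6%) and 57 fell (8.93%), with a median of 0.14. Over all genes, 54.8% of those with a higher region rose and 45.4% of those with a lower region fell. From the other side, 23.5% of the kinase genes that rose in RNA had a higher region and 1.02% a lower one. Of those that fell, 31.3% had a lower region and 0 a higher one. Over all genes that rose, 500 had a higher region, 14 a lower one and 2092 no call. Over all genes that fell, 7 had a higher region, 499 a lower one and 2153 no call.

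**Figure D4:**
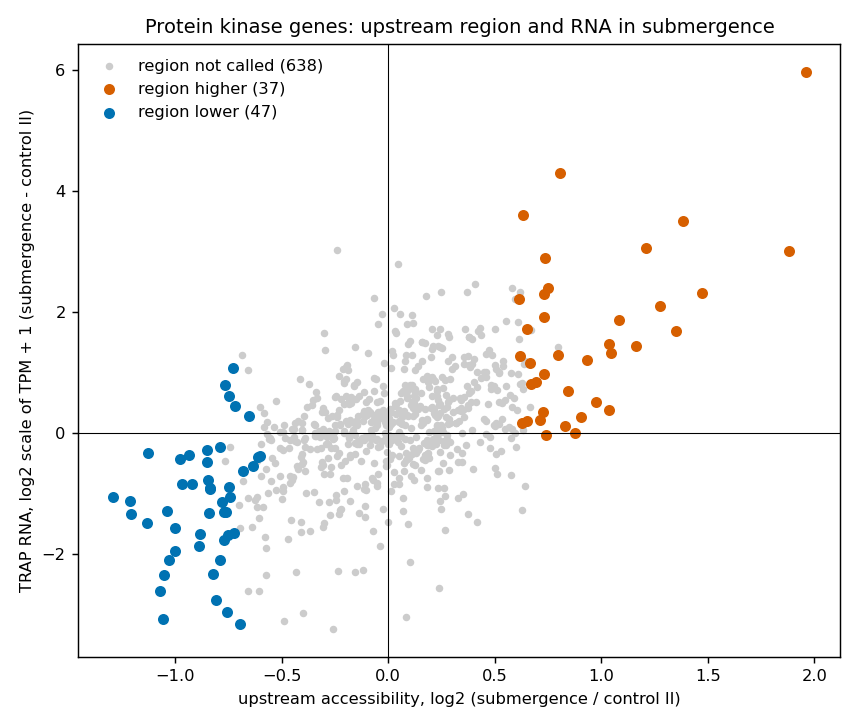
Log2 difference of the upstream region (x axis) against that of translated RNA (y axis, log2(TPM + 1)) in submergence of the 35S line, 1 point per protein kinase gene tested in both. Higher regions (37) lie almost wholly above 0 on the RNA axis, lower regions (47) mostly below it, and regions not called (638) cover both sides.

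Grouped by RNA call, and with called regions included, most regions had the sign of the RNA change. The 98 genes with higher RNA had a median region difference of 0.38, and 87 of them were positive. The 83 genes with lower RNA had a median of -0.47, and 67 were negative. The 541 genes without an RNA call stood at 0.02. The exception among called genes was OS05G0165900, named after its values were seen. Its region fell from 50.6, 50.2 and 45.3 CPM to 26.9, 29.3 and 34.0 CPM without overlap (log2 -0.73, adjusted p = 0.0237), while its RNA rose from 1.77 ± 0.142 to 4.83 ± 0.739 TPM. The CTR1-like gene OS09G0566550 (CTR1 represses ethylene responses in Arabidopsis) also had a lower region (-0.75) and an RNA value above 0 (0.61) that was not called.

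RNA changed strongly in many genes whose region was not called. OS06G0241100 went from 16.5 ± 3.67 to 140 ± 11.6 TPM with a region difference of -0.24 (SE 0.21). OS05G0486100 went from 49.1 ± 9.19 to 256 ± 73.9 TPM with a region difference of 0.25, and the SHR5-like gene OS05G0263100 from 1.25 to 10.4 TPM with 0.58. These 3 regions did not pass the test, although their RNA rose. Among falls, the MARK-like gene OS03G0223000 went from 69.4 ± 22.0 to 6.25 ± 1.60 TPM with a region difference of -0.26 (SE 0.35), and a leucine-rich repeat kinase gene (OS07G0618400) from 15.1 ± 3.26 to 0.843 ± 0.201 TPM with -0.49. OS02G0182600 fell from 16.1 to 1.39 TPM with a region value of 0.08.

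One day after submergence few protein kinase regions had changed back by the test. Against submergence, 19 members were called (2.44% of members, beside 1.74% of all regions), 5 higher (0.537% of all regions) and 14 lower (1.21% of all regions). DESeq2 called 29 (3.72%, beside 2.41% of all regions), and 125 passed an unadjusted p under 0.05 (16.0%, beside 11.3%). The 5 largest falls in recovery were OS09G0544300, OS11G0133001, OS02G0120100, OS07G0686800 and OS07G0141100, all described above as rises in submergence, and since both comparisons use the same submergence libraries this is not a second observation of the rise. Against control II, edgeR called 0 recovery members (0% of all regions), 56 passed an unadjusted p under 0.05 (7.18%, beside 5.95%) and DESeq2 called 0. OS02G0120100 stood 0.66 above control II in recovery, with an adjusted p of 0.578. The 5 rises in recovery were OS01G0929200 (from 6.64 ± 2.48 to 14.7 ± 4.01 CPM, log2 1.17), OS08G0201500, OS08G0248100 (from 13.9 to 28.7 CPM, log2 1.05), OS11G0121500 and OS03G0634400 (from 19.6 to 36.4 CPM, log2 0.90). A pair of receptor-like kinase genes with a shared window, OS01G0113400 and OS01G0113500, fell in recovery by 0.86 and 0.96 on the log2 scale. The recovery count was 9 to 22 when each library was left out, with 9 without submergence replicate 2, 10 without recovery replicate 1 and 11 without submergence replicate 1.

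Water deficit changed few protein kinase regions. In the 35S line 10 of 780 were called against control I, which is 1.28%, beside 0.797% of all regions and 0.947% of the regions of genes with a description. They were 4 higher (0.509% of all regions) and 6 lower (0.288% of all regions), 96 passed an unadjusted p under 0.05 (12.3%, beside 9.71% of all regions), and DESeq2 called 14 (1.79%, beside 1.43%). The count was 3 to 9 when each library was left out, with 3 without control I replicate 3, 5 without control I replicate 1, and 6 without control I replicate 2 or without deficit replicate 3. RNA of these genes changed much more widely. It was called in 125 of 722 (17.3%, beside 14.4% of all genes), 21 higher (6.03% of all genes) and 104 lower (8.38% of all genes).

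The largest rise was that of the PBS1-like gene OS07G0695300; PBS1 is known in Arabidopsis as a kinase watched over by an immune receptor. Its region held 19.1, 18.1 and 16.5 CPM in control I, 32.4, 33.9 and 53.3 CPM in deficit and 17.0, 31.1 and 21.9 CPM in recovery. All deficit libraries lay above all others, with replicate 3 the highest (log2 1.17, SE 0.23, adjusted p = 0.00205; 0.00175 to 0.0947 when each library was left out, the highest without deficit replicate 3). Its RNA stood at 1.32 ± 0.515, 12.2 ± 6.00 and 1.92 ± 0.418 TPM in control I, deficit and recovery. SAPK1 (OS03G0390200), an SnRK2 kinase of the hyperosmotic stress response, held 25.4, 23.8 and 19.0 CPM, then 39.1, 38.6 and 68.2 CPM, then 26.6, 29.7 and 39.6 CPM. Deficit lay above control I in all libraries, and deficit replicate 3 was again well above the other two (log2 1.11, SE 0.23, adjusted p = 0.00486). The adjusted p was 0.00202 to 0.139 when each library was left out, with the call lost without deficit replicate 3 or control I replicate 3. SAPK1 RNA stood at 16.2 ± 4.88, 71.6 ± 9.75 and 15.4 ± 1.24 TPM.

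The CIPK18-like gene OS01G0206300, whose window is nearly the same as that of its neighbour OS01G0206200, held 12.7, 18.9 and 17.2 CPM in control I, 30.2, 27.8 and 39.6 CPM in deficit and 17.7, 15.6 and 16.5 CPM in recovery. Deficit stood clear of both other groups (log2 0.96, SE 0.23, adjusted p = 0.0211; recovery -0.94, adjusted p = 0.0439), though 3 of 6 leave-one-out fits lost the call, with an adjusted p of 0.0154 to 0.157. Its RNA showed the steepest rise of the 10 genes, from 3.28 ± 2.05 to 127 ± 24.7 TPM, and stood at 7.66 ± 3.01 TPM in recovery. In OS11G0232100 the directions parted. Its region rose from 30.7, 26.0 and 22.6 CPM to 37.5, 41.4 and 67.4 CPM (log2 0.91, adjusted p = 0.0489; 4 of 6 leave-one-out fits lost the call, with an adjusted p of up to 0.336), and its RNA fell from 140 ± 30.8 to 45.9 ± 4.19 TPM. In submergence the same region fell by 0.89 on the log2 scale, and its RNA by 1.87.

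Among falls, OS02G0767400 held 82.6, 55.0 and 70.1 CPM in control I, 28.5, 26.1 and 29.6 CPM in deficit and 83.9, 57.3 and 75.6 CPM in recovery. The deficit libraries were tightly grouped below every control library, and recovery overlapped the control range (log2 -1.31, SE 0.25, adjusted p = 0.00138; recovery 1.40, adjusted p = 0.000873). Its RNA followed, with 8.57 ± 3.45, 2.89 ± 0.852 and 8.45 ± 0.230 TPM. OS12G0249900 held 103, 60.8 and 102 CPM, then 45.9, 28.8 and 37.9 CPM, then 80.4, 72.8 and 77.6 CPM, again with no overlap between deficit and the other groups (log2 -1.26, adjusted p = 0.00372, and up to 0.0605 without control I replicate 3). OS10G0152000 held 39.7, 48.9 and 52.7 CPM, then 13.4, 22.4 and 23.0 CPM, then 51, 46.7 and 47.5 CPM (log2 -1.26, adjusted p = 0.00045; recovery 1.30, adjusted p = 0.0006). Its RNA, 12 ± 7.52 and 14.2 ± 3.69 TPM, did not move with it. The receptor-like kinase gene OS11G0208800 held 40.8, 38.2 and 40.0 CPM, then 19.0, 24.7 and 18.3 CPM, then 47.3, 33.9 and 42.5 CPM (log2 -0.95, adjusted p = 0.035, lost in 5 of 6 leave-one-out fits with up to 0.145), and its RNA went from 5.08 ± 0.542 to 0.602 ± 0.191 TPM. OS10G0389800 (-0.88) and OS02G0549200 (-0.83) completed the 6 falls, and the call of the former was lost in 5 of 6 leave-one-out fits.

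**Figure D5:**
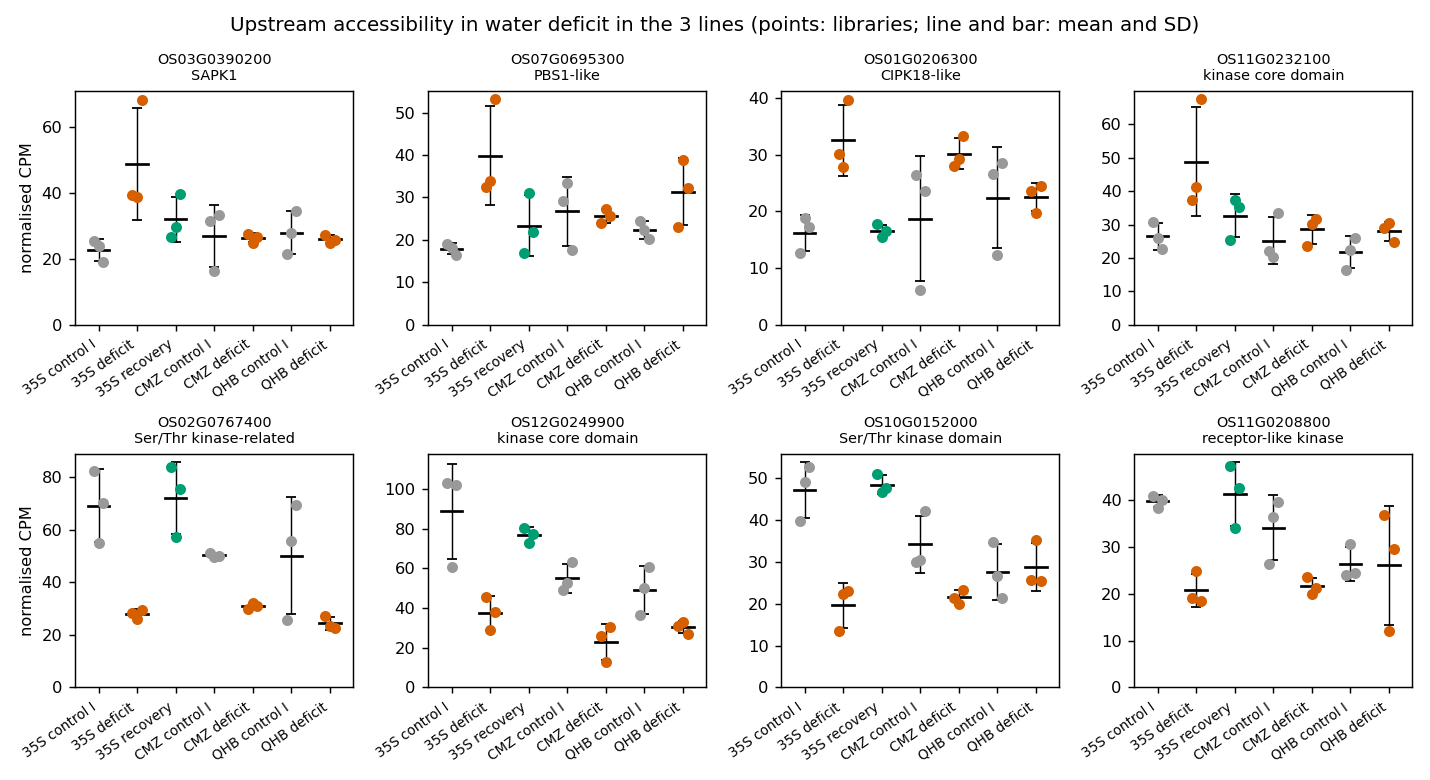
Normalised CPM (y axis) of 8 protein kinase regions called in water deficit of the 35S line, in control I, deficit and recovery of 35S and in control I and deficit of CMZ and QHB; points are the 3 libraries of a group and the line with bar is the mean with SD. The upper 4 regions rose and the lower 4 fell in 35S deficit, and OS12G0249900 also lies lower in all 3 CMZ deficit libraries than in the CMZ controls.

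The other lines, whose libraries are independent of the 35S libraries, gave the same sign as 35S for 9 of these 10 regions in CMZ and for 7 in QHB, and for 6 in both. SAPK1 counts among the 9 at a value of 0.03, and no share of equal signs over all regions is given here. Reads were least concentrated in deficit of CMZ (13.2% to 13.5%) and QHB (12.6% to 18.2%), a profile in which high regions look lower. The part of this in the shared signs was not tested. An unadjusted edgeR p under 0.05 was reached by 5 of the 10 regions in CMZ and by 1 in QHB. Among the regions that reached it, OS12G0249900 held 49.2, 52.5 and 63.1 CPM in CMZ control I and 25.8, 12.9 and 30.6 CPM in CMZ deficit, without overlap (log2 -1.25). OS02G0767400 stood at 25.6, 55.7 and 69.4 CPM in QHB control I and at 27.3, 23.3 and 22.6 CPM in QHB deficit, where the lowest control overlapped the deficit libraries (log2 -1.03). In CMZ it held 51.4, 49.5 and 50.0 CPM and then 29.8, 32.3 and 31.1 CPM (-0.66), a full separation. Of the regions that rose in 35S, SAPK1 stood at 31.4, 16.2 and 33.3 CPM in CMZ control I and 27.6, 24.8 and 26.7 CPM in CMZ deficit (log2 0.03), and at -0.09 in QHB. OS01G0206300 held 26.4, 6.06 and 23.7 CPM and then 28.0, 29.3 and 33.3 CPM in CMZ (0.78), where the controls were widely spread.

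Within CMZ and QHB hardly any protein kinase region was called in deficit. In CMZ there was 1 (0.0255% of all regions called), with 146 members at an unadjusted p under 0.05 (18.7%, beside 16.0% of all regions) and 48 by DESeq2 (6.15%, beside 4.83%). With only the CMZ groups compared in the fit 57 members were called (5.36% of all regions), and 0 with the concentration covariate. In QHB edgeR called 0 (0% of all regions), with 87 at an unadjusted p under 0.05 (11.2%, beside 8.93%) and 1 by DESeq2, and 25 were called without QHB control I replicate 1. The CMZ call was OS08G0255500, similar to BAK1, with 30.7, 44.5 and 26.3 CPM in control I, 10.2, 11.2 and 15.0 CPM in deficit and 25.6, 33.3 and 56.2 CPM in recovery. Deficit stood well below both (log2 -1.49, SE 0.32, adjusted p = 0.028, and up to 0.205 without CMZ deficit replicate 2). It was also the one member called in CMZ deficit recovery (log2 1.65, SE 0.31, adjusted p = 0.0119; up to 0.948 without CMZ recovery replicate 3), beside 0.00283% of all regions, 104 members at an unadjusted p under 0.05 (13.3%, beside 9.44%) and 1 by DESeq2. With only the groups compared in the fit CMZ recovery gave 52 members (3.47% of all regions), and 0 with the concentration covariate. In the 35S line the same region held 104, 64.8 and 72.6 CPM in control I and 53.1, 38.6 and 62.6 CPM in deficit (log2 -0.65, adjusted p = 0.315), and in QHB 12.2, 44.1 and 68.2 CPM and then 12.6, 21.9 and 15.2 CPM. The test of whether the effect of deficit differed between lines called 0 members (0% of all regions), with 39 (5% of members) at an unadjusted p under 0.05 and 0 in the DESeq2 likelihood ratio test.

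In deficit, too, region and RNA could be set side by side. Of the 4 genes with a higher region 3 rose in RNA and 1 fell, and of the 6 with a lower region 2 fell, which is 75% and 33.3%. Over all genes, 75% of those with a higher region rose and 41.1% of those with a lower region fell. The 21 genes with higher RNA had a median region difference of 0.23, with 16 positive, and the 104 genes with lower RNA a median of -0.22, with 78 negative. The median over all members was -0.05. A kinase gene of abscisic acid signalling, OS03G0610900, rose from 4.18 ± 1.35 to 37.9 ± 4.21 TPM while its region differed by 0.11 (SE 0.25). OS07G0534100 rose from 0.595 to 8.50 TPM with a region difference of 0.22, and OS07G0537500 fell from 10.0 ± 8.08 to 0.463 ± 0.200 TPM with -0.60. None of these 3 regions was called by edgeR.

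One day of watering after deficit gave 13 called members in 35S, 11 higher and 2 lower than in deficit (1.67% of members, beside 0.593% of all regions, of which 0.333% were higher and 0.26% lower). Of all members 167 passed an unadjusted p under 0.05 (21.4%, beside 15.2% of all regions) and DESeq2 called 56 (7.18%, beside 2.96%). With only the groups compared in the fit 1 member, OS10G0152000 (adjusted p = 0.0363), was called, beside 0.113% of all regions. The other named calls were lost there, with an adjusted p of 0.0786 for OS02G0767400, 0.111 for OS01G0690800, 0.133 for OS01G0750600, 0.436 for OS12G0249900 and 0.111 for OS01G0969700. Against control I edgeR called 0 recovery members (0% of all regions), with 48 at an unadjusted p under 0.05 (6.15%, beside 5.75%) and 0 by DESeq2. The largest rises were OS02G0767400 and OS10G0152000, followed by OS01G0690800 (from 20.0 ± 1.87 to 42.0 ± 11.3 CPM, log2 1.10), OS01G0750600 (from 19.5 ± 0.780 to 40.1 ± 15.1 CPM, log2 1.09) and OS12G0249900 (1.08). One fall was not a reversal of a called change. OS01G0969700 held 36.0, 21.2 and 37.5 CPM in control I, 45.3, 53.2 and 46.2 CPM in deficit and 29.1, 19.8 and 16.9 CPM in recovery, with control and recovery overlapping (recovery -1.06, adjusted p = 0.0168, and up to 0.153 without recovery replicate 3). The recovery count depended on single libraries: it was 60 without deficit replicate 3, 36 without recovery replicate 2, and 3 to 5 without each of the other 4 libraries (5 without deficit replicate 1, 4 without deficit replicate 2, 3 without recovery replicate 1 and 4 without recovery replicate 3). Concentration of reads was 18.1% to 27.6% in 35S deficit and 22.7% to 32.6% in recovery. With it as a covariate 4 members were called (0.927% of all regions), and the calls of OS01G0690800 (adjusted p = 0.0884), OS01G0750600 (adjusted p = 0.132) and OS12G0249900 (adjusted p = 0.0678) were lost.

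Waterlogging left no called protein kinase region. In 35S edgeR called 0 members (0% of all regions), the smallest adjusted p was 0.796, 74 passed an unadjusted p under 0.05 (9.49%, beside 5.80% of all regions), and DESeq2 called 0. In CMZ edgeR called 0 (0% of all regions), with 35 at an unadjusted p under 0.05 (4.49%, beside 3.46%) and 0 by DESeq2. For recovery from waterlogging edgeR called 0 in 35S (0% of all regions; 8 at an unadjusted p under 0.05, which is 1.03% beside 1.55%, DESeq2 0) and 0 in CMZ (0% of all regions; 10, which is 1.28% beside 1.82%, and DESeq2 0). The waterlogging effect by line was called in 0 members (0% of all regions), with 35 (4.49% of members) at an unadjusted p under 0.05 and 0 in the DESeq2 likelihood ratio test. In TRAP RNA limma called 0 of 722 protein kinase genes in waterlogging, beside 0.171% of all genes called (0.0228% higher and 0.148% lower). At an unadjusted limma p under 0.05 there were 36 protein kinase genes, for which no share over all genes is given. The median standard error of a region was 0.24 in 35S waterlogging and 0.31 in CMZ waterlogging on the log2 scale. Small differences of regions were therefore not detectable with 3 libraries a group.

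In the field, 429 of 780 regions of the 35S line were called against control I, 55% of the members, beside 51.7% of all regions and 48.9% of the regions of genes with a description. They were 293 higher (37.6% of members, beside 24.3% of all regions) and 136 lower (17.4% of members, beside 27.3% of all regions). At an unadjusted p under 0.05 there were 477 (61.2%, beside 57.9% of all regions), DESeq2 called 434 (55.6%, beside 52.8%), and 177 changed at least 2-fold. The median over members was 0.30, beside -0.01 over all regions. The field libraries are also those with the most concentrated reads, and the field effect followed the level of a region. In the bins from lowest to highest level the median difference of members was -0.86, -0.23, 0.40 and 0.76, beside -0.97, -0.35, 0.23 and 0.68 for all regions. Control II against control I showed the same slope within the greenhouse, from -0.44 in the lowest bin of members to 0.46 in the highest, with 0 members called by edgeR (0.0283% of all regions), 217 at an unadjusted p under 0.05 (27.8%, beside 26.2%) and 74 by DESeq2 (9.49%, beside 4.88%). With control II in place of control I the field count was 55, 43 higher and 12 lower (7.05%, beside 4.66% of all regions). With the concentration of reads as a covariate it was 35, 30 higher and 5 lower (4.49%, beside 2.68% of all regions). How far the field itself moved these regions cannot be told apart from the concentration of reads, the age of the plants and the growth site.

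The highest rise in the field was that of OS04G0490500, with a kinase domain name. Its region held 36.0, 45.4 and 30.8 CPM in control I, 170, 157 and 224 CPM in the field and 95.1, 73.7 and 69.2 CPM in control II. Field libraries stood above both controls, and control II above control I (log2 2.31, SE 0.28, adjusted p = 8.79e-08). Against control II the difference was 1.23, and 1.71 with the concentration covariate, and both passed the test. OS01G0690800 held 33.4, 24.0 and 23.7 CPM in control I, 72.8, 95.8 and 116 CPM in the field and 61.7, 51.6 and 56.7 CPM in control II, with 3 levels that did not overlap (log2 1.87; 0.77 against control II). The CDPK-like region OS04G0584600 held 67.2, 55.3 and 67.4 CPM, then 186, 228 and 228 CPM, with 134, 134 and 138 CPM in control II, so that control II already stood well above control I (log2 1.78; 0.67 against control II, not called). Their RNA did not change by the test, at 59.3 ± 28.9 and 115 ± 101 TPM for OS04G0490500, 8.41 ± 4.63 and 11.3 ± 10.3 TPM for OS01G0690800 and 81.2 ± 38.7 and 101 ± 66.3 TPM for OS04G0584600 in control I and the field. OS10G0431900 (1.72) and OS03G0264300 (1.66) followed.

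The counts by role in the field stand beside 24.3% of all regions higher and 27.3% lower, and were not tested. Receptor kinases had 44 higher and 13 lower regions of 106, CDPK 17 and 4 of 34, CIPK 8 and 1 of 19, MAPK cascades 12 and 6 of 28, lectin and S-domain kinases 8 and 1 of 15, shaggy-related kinases 3 and 0 of 6, SnRK 3 and 0 of 9, and tyrosine kinases 6 and 6 of 20. Examples of higher regions were the CIPK9-like OS03G0126800 (51.9 to 153 CPM, log2 1.58), the CIPK16-like OS09G0418000 (1.66), a lectin kinase (OS04G0531400, 83.2 to 241 CPM, log2 1.56, which shares its window with OS04G0531500), and the wall-associated kinase WAK53a (OS04G0599000, 16.8 to 43.8 CPM, log2 1.34). The region of WAK53a was one of the few with a matching RNA call, at 1.33 on the log2(TPM + 1) scale. The chitin elicitor receptor kinase with LysM domains (OS08G0538300), which senses fungal chitin, went from 59.0 to 121 CPM (1.07), and the leucine-rich repeat kinase described by symbiosis (OS07G0568100) from 43.6 to 87.4 CPM (1.03). SAPK1 rose by 1.12, and its difference from control II was 0.74. Against control II the calls of OS09G0418000 (1.28), WAK53a (0.94) and SAPK1 held, but with the concentration covariate those of WAK53a (1.04, adjusted p = 0.0691) and SAPK1 (0.78, adjusted p = 0.109) did not. Those of OS03G0126800 (0.64), OS04G0531400 (0.60), OS08G0538300 (0.30) and OS07G0568100 (0.54) did not.

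The deepest fall was that of the BAK1-like region OS11G0514400, with 13.8, 17.3 and 19.9 CPM in control I, 2.51, 5.17 and 4.49 CPM in the field and 6.54, 7.26 and 9.14 CPM in control II. The field libraries were lowest and control II lay between without overlap (log2 -2.00, adjusted p = 2.28e-05; -0.83 against control II, not called). OS10G0360800 held 33.9, 32.4 and 19.9 CPM, then 4.18, 8.13 and 8.05 CPM, with 17.2, 8.81 and 14.7 CPM in control II, the same order of groups (log2 -1.97; -0.91 against control II, not called). The NPK15-like region OS01G0674800 held 18.5, 17.4 and 16.7 CPM, then 3.35, 5.76 and 4.78 CPM, with 9.72, 7.11 and 9.14 CPM in control II (log2 -1.85; -0.84 against control II, not called). RNA of OS01G0674800 stood at 26.3 ± 2.65 TPM in control I and 21.4 ± 2.92 TPM in the field. A CDPK-like region (OS07G0161600, shared with OS07G0161650) fell by 1.83 on the log2 scale and OS09G0349100 by 1.78. LysM (OS01G0741200, shared with OS01G0741250, -1.55) and LRK10-like (OS01G0117100, -1.46) regions were lower as well. Each of these calls was lost in 1 or 2 of 8 alternative settings of the test or control. The edgeR adjusted p there reached 0.146 for OS07G0161600, 0.143 for OS09G0349100, 0.224 for OS01G0741200 and 0.246 for OS01G0117100.

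Field regions and field RNA had little in common. RNA was called in 42 of 722 genes (5.82%, beside 7.6% of all genes), 15 higher (2.79% of all genes) and 27 lower (4.81% of all genes). Of the 290 tested genes with a higher region 2 rose and 4 fell, of the 108 with a lower region 4 rose and 8 fell, and of the 324 without a call 9 rose and 15 fell. Over all genes, 2.40% of those with a higher region rose and 3.4% fell, and 3.32% of those with a lower region rose and 6.05% fell. The genes with lower RNA had a median region difference of 0.24 and those with higher RNA of 0.03.

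In the CMZ line the field gave 0 called protein kinase regions by edgeR (0.00283% of all regions), with 58 at an unadjusted p under 0.05 (7.44%, beside 6.72%) and 0 by DESeq2. The concentration of reads there was 17.6% to 22.7% in the field and 19.8% to 25.8% in control I, so that it did not climb as in 35S. Of the 293 regions higher in the 35S field, with a median of 0.91, 190 were above 0 in CMZ, with a median of 0.13. Of the 136 lower regions, with a median of -0.99, 74 were below 0 in CMZ, with a median of -0.07. Over all members the median in the CMZ field was 0.04, beside -0.01 over all regions. Both sets were chosen by their 35S call, so their 35S medians are those of selected regions. The test of the difference between lines called 128 of 780 members, a share near the 15.2% of all regions called. At an unadjusted edgeR p under 0.05 there were 271 members (34.7%), and the DESeq2 likelihood ratio test called 167. For these no share over all regions is given. The edgeR count was 43 to 148 when each library was left out, with 43 without 35S control I replicate 2, 57 without 35S field replicate 3, 70 without CMZ field replicate 2, 82 without 35S field replicate 2 and 83 without control I replicate 3 of either line.

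The regions described here were picked for the smallest p in the test between lines, so that passing it was given. None of their CMZ differences passed (edgeR, adjusted p of 0.457 for OS05G0525800, 0.646 for OS10G0360800, 0.841 for OS01G0674800 and 0.848 for both OS08G0201500 and OS04G0490500). OS10G0360800, which fell in the 35S field, held 15.7, 10.1 and 14.0 CPM in CMZ control I and 21.0, 27.0 and 23.7 CPM in the CMZ field, all higher (CMZ log2 0.85; adjusted p of the difference 0.0009). OS05G0525800 held 14.3, 23.3 and 21.3 CPM and then 10.9, 9.76 and 9.57 CPM in 35S, and 20.7, 14.1 and 11.4 CPM and then 29.2, 32.6 and 31.6 CPM in CMZ. Within each line the field libraries did not overlap control I, below it in 35S and above it in CMZ (adjusted p of the difference 0.00347); its window is nearly that of OS05G0525701. The SHR5-like region OS08G0201500, which fell in submergence, held 74.1, 68.0 and 51.3 CPM and then 186, 148 and 122 CPM in 35S, and 78.5, 62.7 and 85.9 CPM and then 76.3, 29.3 and 46.1 CPM in CMZ, where the groups overlapped (adjusted p of the difference 0.00414). OS04G0490500 held 58.5, 51.5 and 54.4 CPM in CMZ control I and 80.1, 54.0 and 106 CPM in the CMZ field, where 1 field library lay within the control range (CMZ log2 0.56; adjusted p of the difference 0.00452). OS01G0674800 differed between lines at an adjusted p of 0.00347, with 15.7, 9.09 and 15.8 CPM in CMZ control I and 15.7, 28.1 and 18.0 CPM in the CMZ field.

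Between lines in control I no protein kinase region was called. CMZ against 35S gave 0 by edgeR (0.00568% of all regions), with 54 at an unadjusted p under 0.05 (6.92%, beside 6.50%) and 0 by DESeq2. QHB against 35S gave 0 by edgeR (0.00568% of all regions), with 36 at an unadjusted p under 0.05 (4.62%, beside 3.87%) and 0 by DESeq2. The median difference of members was -0.02 for CMZ and 0.02 for QHB, and the median standard error of a member was 0.32 and 0.31.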

How the data were processed

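Accessibility was measured by ATAC-seq on captured root nuclei in 51 of the 238 libraries of the study, and RNA values were those of 30 TRAP libraries of the 35S line. The authors deposited the ATAC data as raw counts of reads per upstream region. The authors deposited the RNA data as TPM. Per the file headers, TPM was derived from reads quantile-normalised in limma voom, and a gene needed more than 3 CPM in some condition to be listed. The TPM values hold no depth. Bowtie2, TopHat2, HOMER, limma and the IRGSP-1.0 build are named in the submitters' processing notes, which state no settings. Whether reads were shifted for Tn5, stripped of duplicates or divided between copies cannot be learned from these sources. No genome was used, and 0 members matched a RefSeq symbol.

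Counts were tested with edgeR 4.0.16 (R 4.3.3; TMM, filterByExpr, quasi-likelihood F test) with 1 fit per line over all its groups: 35390 regions in 35S (27 libraries), 35318 in CMZ (18), 35206 in QHB (6) and 35232 for the lines in control I (9). P-values were adjusted by Benjamini-Hochberg over all regions of a fit, and an interaction of line and environment tested differences between lines. DESeq2 1.42.0 was an alternative. TPM was tested with limma 3.58.1 (eBayes with trend) on log2(TPM + 1), over 26315 genes (3 or more libraries at 1 TPM or above), and called at an adjusted p under 0.05 and a log2 difference of at least 1. This scale understates changes of low genes. The tests were checked on data drawn with known changes. Files were read with the R package data.table, version 1.17.8. Normalised CPM is scaled by TMM over all 51 libraries. Shares of counts were compared with exact two-sided permutation tests.

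Named regions were called members with a mean of at least 10 counts in the higher group. They were the 5 largest rises and falls of a comparison, up to 5 per role and comparison by p, the 5 smallest p of an interaction, and the 10 highest and 5 lowest regions of 35S control I. Other named genes were chosen after their values were seen. The members, roles and tests were chosen with earlier results of these data known. Roles were matched by words in descriptions, which also took 12 partner proteins that are not kinases, and 125 members fell in no role. No pair of libraries had equal counts in more than 3.95% of regions. Same-numbered libraries did not deviate together in every pair (correlation over 0.1) in any ATAC comparison. In TRAP waterlogging they did (0.476 to 0.620), and a fit with the replicate number as a block also called 0 protein kinase genes with limma there (41 at an unadjusted p under 0.05).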

Additional observations from a re-analysis of the deposited data

Results flagged for a closer look

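For 30 named protein kinase regions the effect of the field differed between the 35S and CMZ lines by the interaction test (edgeR's quasi-likelihood test, adjusted over all regions). Regions were named partly for a large effect in the same 35S field libraries and partly for a small p of this interaction. The 30 are therefore a selected list. Over all members the interaction called 128 of 780, a share near the 15.2% of all regions called. The field libraries of 35S had more concentrated reads than their controls and those of CMZ did not, and the part of this in the differences was not tested.

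Of the regions that were lower in the 35S field and above 0 in CMZ, OS10G0360800 had an adjusted p of 0.000900 (35S -1.97, CMZ 0.85 on the log2 scale), OS01G0674800 of 0.00347 (-1.85, 0.60), OS05G0525800 of 0.00347 (-0.99, 1.00), OS07G0161600 of 0.00612 (-1.83, 0.34), OS09G0349100 of 0.0129 (-1.78, 0.09) and OS12G0203000 of 0.0365 (-1.39, 0.03). OS11G0514400 was lower in both lines, at 0.0320 (-2.00, -0.47). None of the CMZ differences was called by edgeR (58 of the 780 members at an unadjusted p under 0.05, 0 by DESeq2).

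Of the regions higher in the 35S field and below 0 in CMZ, the SHR5-like OS08G0201500 had an adjusted p of 0.00414 (1.26, -0.57), the CDPK-like OS04G0584600 of 0.00508 (1.78, -0.05), the CIPK9-like OS03G0126800 of 0.00731 (1.58, -0.06), OS03G0160100 of 0.00889 (1.37, -0.05), OS10G0521700 of 0.00959 (1.07, -0.37) and OS03G0756200 of 0.0110 (1.14, -0.26). They were followed by OS12G0105800 at 0.0135 (1.10, -0.27), OS03G0183800 at 0.0142 (0.91, -0.40), OS03G0319100 at 0.0171 (1.11, -0.17), OS05G0218400 at 0.0214 (1.01, -0.31) and the MAPK gene OS06G0708000 at 0.0219 (0.72, -0.50). OS08G0538300 stood at 0.0324 (1.07, -0.01), OS04G0488000 at 0.0329 (0.87, -0.30), OS07G0568100 at 0.0423 (1.03, -0.08) and OS06G0288100 at 0.0439 (0.96, -0.16).

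Regions above 0 in both lines but less so in CMZ were OS04G0490500 at 0.00452 (2.31, 0.56), OS01G0690800 at 0.00555 (1.87, 0.17), OS03G0264300 at 0.0129 (1.66, 0.20), OS04G0531400 at 0.0167 (1.56, 0.22), OS10G0431900 at 0.0206 (1.72, 0.52), WAK53a (OS04G0599000) at 0.0320 (1.34, 0.19), OS06G0543400 at 0.0435 (1.04, 0.02) and OS01G0227200 at 0.0457 (1.25, 0.17).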

How the results depend on the processing

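Counts of called members moved by more than 1.5 times in several of the settings given here, and the cause was not tested. The counts in this section are of members alone. Where the results above give no share over all regions, a count does not tell whether protein kinase regions moved more than other regions. With the concentration covariate, added after seeing the data, deficit gave 18 members, deficit recovery 4, field 35, submergence 133, submergence recovery 42, CMZ deficit 0 and CMZ deficit recovery 0. With control II as the control the field gave 55, and with control I submergence gave 235. With only the groups compared in the fit, controls II against I gave 200, deficit recovery 1, submergence 147, CMZ deficit 57, CMZ deficit recovery 52 and field RNA 14. DESeq2 gave 74 for the controls, 56 for deficit recovery, 29 for submergence recovery, 48 for CMZ deficit and 1 for QHB deficit. Scaling by library totals gave 20, 29 and 0 for deficit recovery, submergence recovery and CMZ deficit; it moved the median of all regions by -0.12 in deficit recovery and 0.14 in CMZ deficit. Without a filter the controls gave 1, and a pseudocount of 0.1 gave 64 for field RNA. With the replicate block, the controls gave 75, deficit recovery 32, submergence recovery 29, submergence 105 and field 443; same-numbered ATAC libraries share only a number, and 127 of 127 named results kept their call.

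Leaving out each library in turn, deficit ranged from 3 to 9, deficit recovery from 3 to 60, submergence from 38 to 86, submergence recovery from 9 to 22, field from 315 to 405, CMZ deficit from 0 to 1, CMZ deficit recovery from 0 to 1, QHB deficit from 0 to 25 and field by line from 43 to 148. RNA ranged from 107 to 140 in deficit and from 162 to 178 in submergence. The difference in the share of counts, in percentage points, changed sign for submergence (-0.00127 to 0.0875), submergence recovery against control II (-0.0429 to 0.0395; 0.0141 without recovery replicate 2), waterlogging recovery (-0.0455 to 0.0305), CMZ waterlogging recovery (-0.0465 to 0.110; also -0.0330 and -0.0224) and QHB against 35S (-0.109 to 0.0422). Among named regions, OS03G0319100 (-0.0034) and OS10G0564900 (-0.0155) changed sign in the field with the covariate. In submergence RNA, OS02G0819900 ranged from -0.396 (without submergence replicate 3) to 0.554, and OS12G0574700 from -0.111 to 0.0257 (0.000985 without control II replicate 1). Of 93 named results, 59 kept their call with the covariate; of 822 leave-one-out values, 683 did. With 3 libraries a group, the median standard error was 0.23 in submergence and 0.35 in QHB deficit (log2), so small differences in QHB were not detectable.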
